A study of Rattus norvegicus with 138 samples.

Results

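The genes described here encode 8 partner proteins of the AMPA receptor, the ion channel that carries most fast excitatory transmission by glutamate in the brain. They are Cacng2, Cacng3, Cacng4, Cacng5, Cacng7, Cacng8, Cnih2 and Cnih3, taken by symbol from the 32883 genes measured. The group was chosen because Cacng5 was lower in spontaneously hypertensive rats at every age, so the strain difference of Cacng5 is given as a description with no test. RNA was sequenced from 3 cardiovascular control regions of the brainstem, the nucleus of the solitary tract (NTS), which receives the first central input from baroreceptors, the caudal ventrolateral medulla (CVLM), which relays inhibition onward, and the rostral ventrolateral medulla (RVLM), whose neurons drive sympathetic outflow. Female rats of the hypertensive strain SHR/NHsd (SHRs) and of the normotensive control strain WKY/NHsd (WKY rats), both bought from Envigo and with no treatment named in the labels, were taken at 5 ages. The numbers of WKY rats were 5 at 8 wk, 4 at 10 wk and 3 at each of 12, 16 and 24 wk, and those of SHRs were 5 at 8 wk, 5 at 10 wk and 6 at each of 12, 16 and 24 wk. Each of the 46 rats gave 1 library per region, so the rats of a group are separate animals and the 3 regions are from the same rats. The strains differ across the whole genome, not by an engineered allele, and a difference between them cannot be told apart from a difference in genetic background.

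AMPA receptors are built from the subunits GluA1 to GluA4, encoded by Gria1 to Gria4, and reach the synapse together with auxiliary proteins. Transmembrane AMPA receptor regulatory proteins (TARPs) bind the receptor, carry it to the membrane and change how fast the channel opens, closes and desensitizes. Cacng2 (stargazin), Cacng3, Cacng4 and Cacng8 encode the type I TARPs, and Cacng5 and Cacng7 encode the type II TARPs, which bind the same receptors but modulate gating differently and anchor them less well. Cnih2 and Cnih3 encode cornichon proteins, which help the receptor leave the endoplasmic reticulum and slow its closing. In the NTS, baroreceptor fibers release glutamate onto neurons that carry AMPA receptors.

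The 250 bases before the annotated start of Cacng5, for its strain difference, and of Cacng3, the only other member called between strains, are shown from the RefSeq promoter table of the assembly GRCr8, with each CpG in capitals and written 5′ to 3′ on the gene's own strand. The Cacng5 window lies at chr10:93336668-93336917 on the minus strand, and the Cacng3 window at chr1:186632312-186632561 on the plus strand.
Cacng5: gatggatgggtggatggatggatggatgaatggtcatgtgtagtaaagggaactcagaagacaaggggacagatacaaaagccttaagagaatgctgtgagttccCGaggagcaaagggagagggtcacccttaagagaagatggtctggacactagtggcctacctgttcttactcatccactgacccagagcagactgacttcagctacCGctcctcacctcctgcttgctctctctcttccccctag
Cacng3: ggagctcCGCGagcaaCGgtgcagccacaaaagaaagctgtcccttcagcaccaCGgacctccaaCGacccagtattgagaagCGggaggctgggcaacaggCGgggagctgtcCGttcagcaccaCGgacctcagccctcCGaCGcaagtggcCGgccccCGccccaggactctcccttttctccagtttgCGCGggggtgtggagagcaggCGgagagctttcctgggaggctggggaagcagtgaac
The Cacng5 window held 2 CpG and was 51.2% G or C, against medians of 5 CpG and 51.2% over the same window of 33469 promoters. That of Cacng3 held 16 CpG and was 64.8% G or C. Of 5 motifs searched on both strands, none was in the Cacng5 window. In the Cacng3 window, GGGCGG occurred 1 time. Over all promoters of the table, GGGCGG was in 30.5%, CCAAT in 34%, TATAAA in 12.9%, CACGTG in 5.59% and TGACGTCA in 1.59%. The table matched 6 of the 8 members. These letters are those of the reference assembly, and sequence differences between the strains were not analysed here.

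Over all libraries, total counts ran from 5904570 to 17889400, with a median of 10143000. Library names end in 1 or 2, and the 14 libraries per region ending in 2 were more deeply sequenced (all regions together, median 14677500) than the 32 per region ending in 1 (median 9331620). Those ending in 2 hold every rat of 10 wk, so at that age the number and the age cannot be told apart. At 8 wk they were replicates 3, 4 and 5 of the WKY rats and no SHR, so the number goes in part with strain there. No WKY library of 24 wk ended in 2, so in WKY rats the number also goes in part with age. The others were replicate 6 of the SHRs of 12 wk and of 24 wk. Every library lay nearest to its own region over 500 genes. In 5 NTS libraries, all of WKY rats, the summed level, in read counts scaled to a common library size (CPM), of the choroid plexus markers Ttr, Kl, Folr1 and Clic6 ran from 101 to 4367, against at most 10.8 in the other 41, and edgeR called 3 of these 4 markers (not Kl) lower in SHRs. The SHRs' NTS libraries had no such level, so the results for the NTS are also given without those 5 libraries. In the CVLM, replicate 2 of the WKY rats of 12 wk, 1 of the rats with a rich NTS library, had 197 CPM, against at most 34.7 CPM in the other CVLM libraries. For 2 CVLM libraries, replicate 5 of each strain at 8 wk, the title and the age label differ, and both were kept at 8 wk.

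Levels are given in CPM after scaling over all libraries, which allows 1 gene to be compared between libraries but not 1 gene with another, since gene lengths were not used. Cacng2, Cacng3, Cacng4, Cacng5 and Cnih2 passed the filter on low values in all 3 regions. Cacng7, Cacng8 and Cnih3 passed it in none, so their values rest on few reads. Of these, the highest count in any library was 18 for Cacng7, 14 for Cacng8 and 22 for Cnih3. In tissue punches, fewer cells of a type and less RNA per cell cannot be told apart.

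Cacng5 was lower in the NTS of SHRs than in that of WKY rats at each of the 5 ages, with no overlap between the strains. At 8 wk, its level in the NTS was 20.8, 30.9, 27.4, 24.4 and 18.5 CPM in the WKY rats. In the SHRs of that age it was 9.12, 9.22, 8.26, 12.3 and 9.40 CPM. The highest SHR library thus lay below the lowest WKY library. At 10 wk, it was 16.5, 20.7, 25.0 and 27.1 CPM in WKY rats. The SHRs of that age had 4.19, 9.63, 12.0, 10.2 and 11.6 CPM. The lowest of these, 4.19 CPM, was the lowest NTS library of all.

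At 12 wk, Cacng5 was at 17.9, 33.5 and 27.5 CPM in the NTS of WKY rats, and the SHRs had a lowest of 8.02, a median of 9.04 and a highest of 11.7 CPM. At 16 wk, the WKY rats had 20.5, 24.4 and 23.8 CPM and the SHRs a lowest of 10.6, a median of 11.2 and a highest of 12.5 CPM. At 24 wk, the WKY rats had 26.7, 33.4 and 22.6 CPM and the SHRs a lowest of 6.19, a median of 10.0 and a highest of 14.8 CPM. The strains stayed apart at these ages as well. Over all ages, the lowest WKY library had 16.5 CPM and the highest SHR library 14.8 CPM.

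The mean in the NTS was 24.5 ± 4.99 CPM (SD, n = 18) in WKY rats and 10.1 ± 2.12 CPM (SD, n = 28) in SHRs, which is 41.3% of the WKY level. By age, the SHR mean was 39.6%, 42.7%, 35.6%, 49.9% and 38.0% of the WKY mean from the youngest to the oldest group. The fitted log2 fold change of SHRs against WKY rats (SE in parentheses) was -1.38 (0.20), -1.18 (0.21), -1.47 (0.22), -1.01 (0.22) and -1.40 (0.22) in the same order, and -1.29 (0.095) as the mean over ages. Of 13793 genes tested in the NTS, 0.37% had every SHR library below every WKY library over all ages. Within single ages, this share was 1.59%, 5.64%, 3.57%, 3.05% and 3.11%. Since Cacng5 was chosen by this contrast, nothing is read from these shares.

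**Figure D1:**
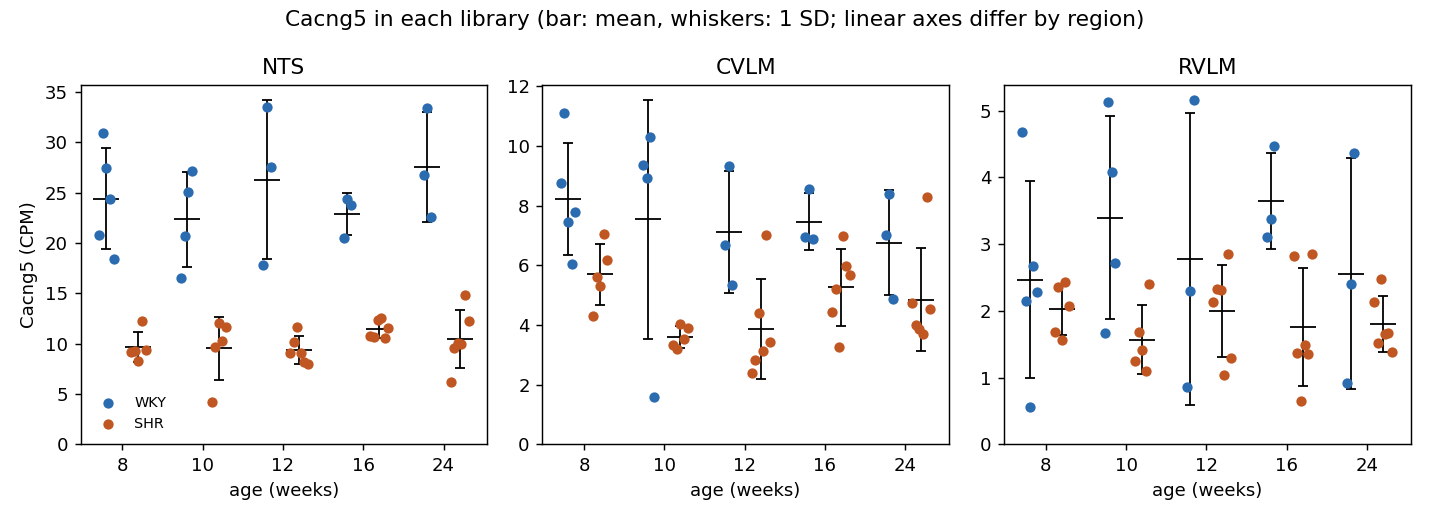
Cacng5 in CPM (vertical axes) against age in weeks (horizontal axes), with 1 point per library in the NTS, CVLM and RVLM, horizontal bars for group means and whiskers of 1 SD. In the NTS, the 28 SHR libraries sit between 4.19 and 14.8 CPM, all below the 18 WKY libraries, which sit between 16.5 and 33.5 CPM, whereas the strains overlap in the CVLM at every age.

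In the 5 choroid-rich NTS libraries of WKY rats, Cacng5 ran from 18.5 to 33.5 CPM (mean 27.5). The other 13 WKY libraries had 16.5 to 33.4 CPM (mean 23.4). Without the 5 libraries, the mean log2 fold change was -1.17 (SE 0.10) and that at 12 wk, where 1 WKY library was left, was -0.97. Of 5 neuronal markers in the NTS, edgeR called 0 and DESeq2 called 0 over all ages, with 1 at an unadjusted edgeR p under 0.05. Their summed level in the NTS ran from 3080 to 4879 CPM in WKY rats (median 3804) and from 3097 to 4242 CPM in SHRs (median 3682). Among glial markers in the NTS, Mobp, 1 of 5 of oligodendrocytes (summed 17618 to 41429 CPM in WKY rats and 18986 to 45870 CPM in SHRs), and Tmem119, 1 of 5 of microglia (summed 191 to 255 and 186 to 303 CPM), were lower in SHRs. Ccdc153, 1 of 3 ependymal markers tested (summed 2.49 to 48.1 CPM in WKY rats, median 12.3, and 0.828 to 16.9 CPM in SHRs, median 6.74), was lower as well. Of 6 astrocyte markers, edgeR called 0 and DESeq2 called 0, with 0 at an unadjusted p under 0.05. The part of these markers in the strain difference of Cacng5 was not tested.

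In the CVLM, Cacng5 was lower in SHRs by a smaller ratio than in the NTS, and the strains overlapped at all 5 ages. At 8 wk it was 8.77, 11.1, 7.43, 6.05 and 7.79 CPM in WKY rats and 4.31, 5.62, 5.31, 7.04 and 6.18 CPM in SHRs. At 10 wk it was 9.36, 8.91, 10.3 and 1.59 CPM in WKY rats and 3.32, 3.19, 4.03, 3.53 and 3.88 CPM in SHRs. The overlap at 10 wk came from 1 library, replicate 4 of the WKY rats, which lay below every SHR of that age. Without it, the log2 fold change at 10 wk was -1.40, compared with -1.06 with it. At 12 wk, the WKY rats had 6.69, 9.34 and 5.33 CPM and the SHRs a lowest of 2.39, a median of 3.28 and a highest of 7.02 CPM. At 16 wk, the values were 6.94, 8.55 and 6.87 CPM against 3.25, 5.44 and 6.99 CPM as lowest, median and highest of the SHRs, and at 24 wk they were 7.02, 8.38 and 4.88 CPM against 3.70, 4.26 and 8.27 CPM. The medians of the SHRs lay below every WKY library of their age at these 3 ages. Over all ages, the mean was 7.52 ± 2.21 CPM (SD, n = 18) in WKY rats and 4.65 ± 1.48 CPM (SD, n = 28) in SHRs, with a fitted log2 fold change of -0.70 (SE 0.14). At single ages it ran from -1.06 to -0.50, and at each the SHR mean was the lower. Without the rat whose CVLM library was rich in choroid plexus markers, where Cacng5 was at 9.34 CPM, the mean log2 fold change was -0.66 and that at 12 wk was -0.68. In this region, Mog, Mbp and Mobp, 3 of 5 oligodendrocyte markers (summed 37744 to 72099 CPM in WKY rats and 37542 to 63524 CPM in SHRs), were lower in SHRs. So were Tmem119 and Aif1, 2 of 5 microglial markers (summed 144 to 211 and 136 to 221 CPM). Kl, 1 of 2 choroid plexus markers tested (all 4 summed to 0.318 to 197 and 1.44 to 6.85 CPM), was higher in SHRs. The part of these markers in the CVLM difference of Cacng5 was not tested.

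In the RVLM, where Cacng5 was lowest, the difference between strains was of similar size to that in the CVLM but less steady by age. The mean was 2.94 ± 1.46 CPM (SD, n = 18) in WKY rats and 1.83 ± 0.594 CPM (SD, n = 28) in SHRs, with a fitted log2 fold change of -0.69 (SE 0.19). At 16 wk, the WKY rats had 3.11, 3.38 and 4.47 CPM and the SHRs a lowest of 0.649, a median of 1.43 and a highest of 2.85 CPM. This was the only age without overlap in the RVLM, where 2.12% of genes had every SHR library below every WKY library. At 8 wk, the WKY rats had 4.69, 2.15, 0.558, 2.67 and 2.28 CPM and the SHRs 1.69, 2.36, 1.57, 2.43 and 2.07 CPM, a log2 fold change of -0.30 (SE 0.41). The WKY rats thus lay both above and below the SHRs at 8 wk. At 10 wk, the WKY rats had 1.67, 5.14, 4.08 and 2.71 CPM and the SHRs 1.26, 1.68, 1.42, 1.10 and 2.40 CPM. At 12 wk, the WKY rats had 0.858, 2.30 and 5.16 CPM and the SHRs 1.04 to 2.85 CPM with a median of 2.22. At 24 wk, the WKY rats had 0.915, 2.40 and 4.37 CPM and the SHRs 1.39 to 2.49 CPM with a median of 1.66. At both of these ages, a WKY rat had the lowest library and another WKY rat the highest. At 8, 12 and 24 wk, 1 WKY library decided the sign, with log2 fold changes of 0.043 without WKY replicate 1 of 8 wk, 0.32 without WKY replicate 3 of 12 wk and 0.062 without WKY replicate 3 of 24 wk. With all libraries, the values at these ages were -0.30, -0.48 and -0.50. With the name number as a term, they were -0.67, -0.37 and -0.38. Without the libraries ending in 2 outside 10 wk, they were -0.77, -0.35 and -0.45. With age and replicate number together as a block, they were closer to no difference, at -0.15, -0.076 and -0.21. In raw counts, Cacng5 had a median of 22 reads per library in the RVLM and 151.5 in the NTS, so that the RVLM values carry the larger counting error. Among markers of other cells in the RVLM, Mog and Mobp, 2 of 5 of oligodendrocytes (summed 33369 to 65369 CPM in WKY rats and 31833 to 52074 CPM in SHRs), and Tmem119, 1 of 5 of microglia (summed 135 to 225 and 133 to 253 CPM), were lower in SHRs. Aldh1l1, 1 of 6 of astrocytes (summed 887 to 2259 and 1046 to 2573 CPM), was higher. What part they had in the RVLM values of Cacng5 was not tested.

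The level of Cacng5 stepped down from NTS to CVLM and from CVLM to RVLM in both strains. In WKY rats, the log2 difference was 3.09 (SE 0.15) between NTS and RVLM, with an adjusted p of 1.6e-33 by edgeR's quasi-likelihood test with Benjamini-Hochberg adjustment over 14043 genes and the rat as a block. In SHRs it was 2.48 (SE 0.13, adjusted p 2.26e-32 by edgeR). The NTS library was above the RVLM and the CVLM library of the same rat in 18 of 18 WKY rats and 28 of 28 SHRs. Between CVLM and RVLM, the log2 difference was 1.36 (SE 0.15, edgeR adjusted p 1.12e-12) in WKY rats and 1.34 (SE 0.13, 3.23e-15) in SHRs. The CVLM library was above the RVLM library of the same rat in 17 of 18 WKY rats and 28 of 28 SHRs. As a description, the strain difference of Cacng5 in the NTS was lower than that in the RVLM by 0.61 (SE 0.20) and than that in the CVLM by 0.58 (SE 0.18) on the log2 scale.

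The type I TARP gene Cacng3 was the only other member with a strain difference past the test, which it passed in the NTS. At 8 wk, its NTS level was 55.9, 52.3, 38.9, 28.4 and 35.0 CPM in WKY rats and 38.6, 36.6, 41.1, 26.4 and 21.0 CPM in SHRs. At 10 wk, it was 41.1, 37.9, 46.7 and 46.6 CPM in WKY rats and 35.0, 29.3, 33.6, 40.0 and 28.3 CPM in SHRs. The strains overlapped at both ages, with the SHR mean the lower. At 12 wk, the WKY rats had 53.9, 52.5 and 50.4 CPM and the SHRs a lowest of 29.0, a median of 38.3 and a highest of 42.8 CPM, with no overlap, as in 3.57% of NTS genes at that age. At 16 wk, the WKY rats had 59.8, 51.7 and 43.4 CPM and the SHRs 37.7, 44.4 and 47.1 CPM as lowest, median and highest. At 24 wk, the WKY rats had 68.2, 45.4 and 52.9 CPM and the SHRs 31.6, 37.2 and 46.8 CPM in the same order. At 16 and 24 wk, 1 WKY library lay within the range of the SHRs.

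Over all ages, Cacng3 in the NTS was at 47.8 ± 9.52 CPM (SD, n = 18) in WKY rats and 36.9 ± 6.64 CPM (SD, n = 28) in SHRs. The fitted log2 fold change was -0.41 (SE 0.076, 95% interval -0.57 to -0.26), a 0.750-fold level, with an edgeR adjusted p of 7.14e-05. Across NTS genes, 11.2% were called over all ages and 5.51% were called lower in SHRs. Without any 1 rat, the log2 fold change stayed between -0.44 and -0.38 and the edgeR adjusted p between 1.55e-05 and 0.000508. Without the 5 choroid-rich libraries, it was -0.42 (SE 0.090) with an edgeR adjusted p of 0.00109. At single ages, the log2 fold change ran from -0.58 (24 wk, edgeR adjusted p 0.0612) to -0.26 (16 wk, edgeR adjusted p 1), and no age was called in this fit. In some other fits, Cacng3 was called at 8 and 24 wk. Without the libraries ending in 2 outside 10 wk, it was at -0.73 (edgeR adjusted p 0.0178) at 8 wk and at -0.65 (edgeR adjusted p 0.0134) at 24 wk. With age and replicate number together as a block, it was at -0.40 (edgeR adjusted p 0.0372) and -0.72 (edgeR adjusted p 0.01). With the leading axis of variation described further on as a term, 8 wk was called at -0.55 (edgeR adjusted p 0.0492). At 24 wk, it was also called in 6 of 46 fits that left out 1 rat, at -0.70 to -0.58 (edgeR adjusted p 0.0215 to 0.0487). The rats left out were WKY replicates 1 and 4 and SHR replicates 3 and 5 of 8 wk, and WKY replicate 2 and SHR replicate 6 of 24 wk. Over all 46 fits, the log2 fold change at 24 wk ran from -0.70 to -0.41 and the edgeR adjusted p from 0.0215 to 0.649. It was not called at 24 wk by DESeq2 (adjusted p 0.0535) or with RLE factors in place of TMM (edgeR adjusted p 0.0757). Nor was it called with each age fitted alone (edgeR adjusted p 0.122) or with the leading axis as a term (edgeR adjusted p 0.162).

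In the CVLM, Cacng3 was at 48.3 ± 8.33 CPM (SD, n = 18) in WKY rats and 44.4 ± 6.15 CPM (SD, n = 28) in SHRs, a log2 fold change of -0.13 (95% interval -0.27 to 0.015, edgeR adjusted p 0.293). In the RVLM, WKY rats had 29.8 ± 7.04 CPM and SHRs 29.6 ± 6.86 CPM, and the log2 fold change was -0.05 (95% interval -0.21 to 0.11, edgeR adjusted p 0.762). The strains overlapped throughout in both regions. The test of the difference itself, the strain effect in the NTS minus that in the RVLM, gave -0.36 (SE 0.11) with an edgeR adjusted p of 0.0564, above the threshold of 0.05. With DESeq2, the same difference was -0.36 with an adjusted p of 0.0405. Leaving out 1 rat moved the edgeR adjusted p between 0.011 and 0.106, so the strain effect of Cacng3 is not shown to differ between these regions.

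**Figure D2:**
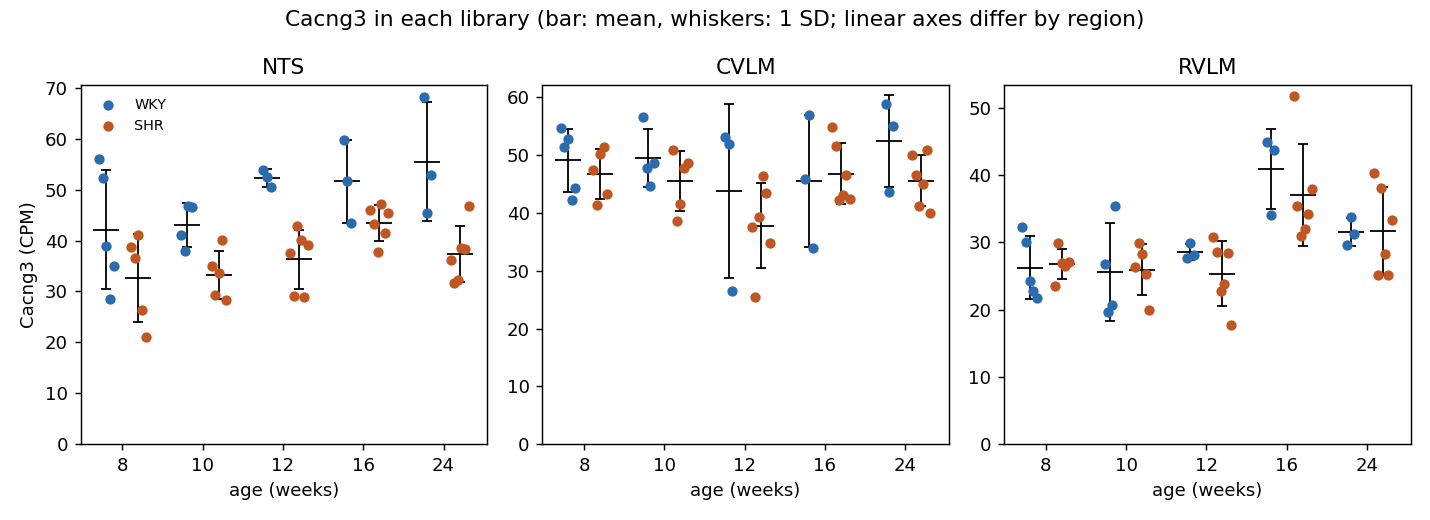
Cacng3 in CPM (vertical axes) against age in weeks (horizontal axes), with 1 point per library in each region, horizontal bars for group means and whiskers of 1 SD. In the NTS the SHR means lie below the WKY means at each age, with full separation at 12 wk, and in the RVLM the strains overlap at every age.

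Cacng2, the type I TARP gene known from the stargazer mouse, did not differ by strain past the test in any region. Its NTS level was 13.6 ± 4.08 CPM (SD, n = 18) in WKY rats and 14.5 ± 5.14 CPM (SD, n = 28) in SHRs, a log2 fold change of 0.09 (95% interval -0.17 to 0.35). The CVLM level was 18.9 ± 6.62 CPM in WKY rats against 19.2 ± 7.36 CPM in SHRs. The RVLM level was 29.6 ± 12.1 against 26.8 ± 9.40 CPM, with a log2 fold change of -0.07 (95% interval -0.35 to 0.21). Its order over regions was the reverse of that of Cacng5. The RVLM library was above the NTS library of the same rat in 18 of 18 WKY rats and 28 of 28 SHRs, with log2 differences of NTS against RVLM of -1.09 (edgeR adjusted p 6.19e-13) in WKY rats and -0.92 (edgeR adjusted p 7.05e-14) in SHRs.

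Cacng3 had a pattern over regions of its own, with like levels in NTS and CVLM and a lower level in the RVLM. In WKY rats, its log2 difference was 0.68 (edgeR adjusted p 8.37e-12) for NTS against RVLM and 0.71 (edgeR adjusted p 4.22e-12) for CVLM against RVLM. Between NTS and CVLM it was -0.03 (edgeR adjusted p 0.778) in WKY rats and -0.27 (edgeR adjusted p 0.000257) in SHRs. In SHRs, the CVLM thus had the highest level of this gene, and it was above the NTS in 22 of 28 rats.

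Cacng4, a type I TARP gene, was low, with 9 to 116 reads in an NTS library, and did not differ by strain past the test. Its level was 3.34 CPM as a mean over 18 WKY rats (0.850 to 5.79) and 3.02 CPM over 28 SHRs (0.855 to 7.42) in the NTS. In the RVLM it was 3.65 ± 2.16 and 2.94 ± 0.925 CPM, a log2 fold change of -0.28 (95% interval -0.68 to 0.11). The highest RVLM library, WKY replicate 3 of 8 wk, had 10.3 CPM, against 1.11 to 3.20 CPM in the other 4 of its group. Over regions, the CVLM was lower than the RVLM in WKY rats by 0.55 on the log2 scale (edgeR adjusted p 0.0225), and the difference in SHRs was -0.30 (edgeR adjusted p 0.133). A call of NTS above CVLM in WKY rats, at 0.46 (edgeR adjusted p 0.0483), was lost in 8 of 9 fits that left out 1 rat.

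Cacng8 and Cacng7, a type I and a type II TARP gene, had medians of 2 to 5 and of 5 to 5.5 reads per library and region. Cacng8 had no read in 1 NTS, 6 CVLM and 6 RVLM libraries, and Cacng7 in 2, 1 and 1. No strain difference was detectable at this depth. With no filter on low values, 0 of 9 tests over ages on Cacng7, Cacng8 and Cnih3 were called by edgeR, and 1 had an unadjusted p under 0.05. Fitted this way, 6.89% of all genes were called for NTS, 7.53% for CVLM and 6.89% for RVLM. Their SHR means ran from 86.3% to 148% of the WKY means, with overlap over all ages in every region. At single ages, the SHR means ran from 33.5% (Cnih3 in the CVLM at 10 wk) to 407% (Cacng7 in the CVLM at 10 wk) of the WKY means. In that group of Cacng7, the WKY rats had 0, 1, 3 and 4 reads (mean 0.131 CPM) and the SHRs 5, 16, 4, 6 and 6 reads (mean 0.533 CPM). Every SHR was above every WKY rat there in CPM, as in 1.92% of genes with any read in the CVLM. Between regions, the NTS level of Cacng8 was above its RVLM level with no filter, by 1.01 (edgeR adjusted p 0.0159) in WKY rats and 0.74 (edgeR adjusted p 0.0293) in SHRs on the log2 scale, where 39.7% and 40.4% of all genes were called.

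Cnih2, which encodes the cornichon best studied in the hippocampus, varied more between rats of 1 group than any other member that passed the filter. In the NTS at 8 wk, WKY replicate 1 had 5.15 CPM and WKY replicate 2 had 71.5 CPM. The same 2 rats had 1.24 and 17.3 CPM in the CVLM and 4.46 and 23.7 CPM in the RVLM, so that the rat with little Cnih2 in the NTS had little in all 3 regions. At 24 wk, WKY replicate 1 had 2.74, 1.73 and 1.05 CPM in NTS, CVLM and RVLM. The ratio of highest to lowest library in a group of strain and age had medians of 10.8, 11.9 and 6.87 in NTS, CVLM and RVLM over 10 groups each. For Cacng3, the same median was 1.45 in the NTS.

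The mean of Cnih2 in the NTS was 32.9 ± 22.5 CPM (SD, n = 18) in WKY rats and 25.4 ± 18.1 CPM (SD, n = 28) in SHRs. With this spread, the log2 fold change of -0.13 had a 95% interval of -0.84 to 0.57. In the CVLM, the means were 12.9 ± 10.3 and 13.6 ± 9.74 CPM, and the log2 fold change was 0.36 (95% interval -0.42 to 1.15). In the RVLM they were 13.0 ± 9.03 and 10.7 ± 7.56 CPM. The intervals in NTS and CVLM both hold -0.41, the size that was called for Cacng3. By region, the NTS level of Cnih2 was above its RVLM level by 1.22 (edgeR adjusted p 5.88e-05) in WKY rats and 1.11 (edgeR adjusted p 6.9e-06) in SHRs on the log2 scale, with the NTS library the higher in 16 of 18 WKY rats and 26 of 28 SHRs.

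Cnih2 moved with the leading axis of variation among the libraries of a region. That axis, the first principal component of log2 CPM computed without the 8 members, held 28.8%, 26.7% and 25.3% of the variance in the NTS, CVLM and RVLM. Over the 46 libraries of each region, Pearson's r of Cnih2 with it was 0.94, 0.94 and 0.92 and Spearman's rho 0.94, 0.93 and 0.92. The permutation p was 1e-05 in each, the smallest that 100000 permutations can give, and 2.5e-05 when adjusted over the 15 relations of 5 members in 3 regions. The sign of the axis was set so that r of Cnih2 is positive. As the axis is the one along which libraries vary most, many genes can have an r other than 0 with it. The share of all genes with an r this large was not computed, so these p cannot show that a member stands out. Without the 2 libraries farthest from the median of the axis, r was 0.94, 0.93 and 0.91. Within the libraries whose names end in 1 it was 0.97, 0.96 and 0.94, and within those ending in 2 it was 0.85, 0.95 and 0.72. The libraries ending in 2 had more Cnih2, with a median in the NTS of 48.3 CPM against 16.7 CPM, and their part in the spread between rats was not tested. Cacng2 followed the same axis, with r of 0.80, 0.84 and 0.82 over all libraries, of 0.80, 0.86 and 0.87 within those ending in 1 and of 0.83, 0.91 and 0.78 within those ending in 2. Cacng3 ran weakly the other way, with r of -0.36 in the NTS (rho -0.32), -0.18 in the CVLM (rho -0.29) and -0.42 in the RVLM (rho -0.39). The adjusted permutation p of r was 0.0246, 0.351 and 0.00714, and that of rho was 0.0571, 0.0791 and 0.0181. For the NTS, r of Cacng3 was -0.34 without the 2 farthest libraries, -0.26 within the names ending in 1, -0.53 within those ending in 2, -0.70 within WKY rats and -0.28 within SHRs. For the RVLM it was -0.46 without the 2 farthest libraries but -0.15 and -0.04 within the names ending in 1 and 2, so the relation there did not hold within these sets. Cacng4 had r of 0.32, -0.04 and 0.15 (adjusted permutation p 0.0498, 0.798 and 0.454), with 0.15 and 0.71 within the names ending in 1 and 2 in the NTS. Cacng5 had r of 0.04, -0.13 and -0.05 (adjusted permutation p 0.798, 0.501 and 0.798).

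**Figure D3:**
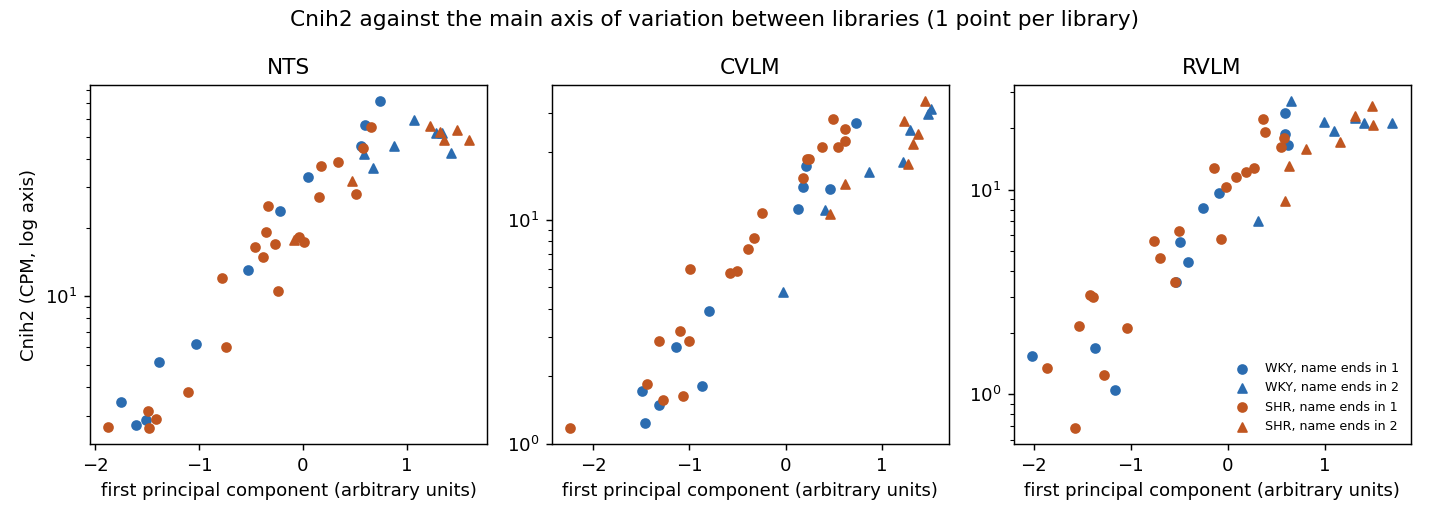
Cnih2 in CPM (vertical axes, log scale) against the score of each library on the first principal component of its region (horizontal axes), with 1 point per library, coloured by strain and marked by the number that ends its name. Cnih2 follows the axis in all 3 regions with r of 0.92 to 0.94.

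Cnih3, the second cornichon gene, had medians of 8, 3 and 2 reads per library in NTS, CVLM and RVLM. Fitted with no filter, its NTS level exceeded its RVLM level by 1.86 (edgeR adjusted p 9.34e-06) in WKY rats and 1.61 (edgeR adjusted p 1.55e-06) in SHRs on the log2 scale. It was also higher there than in the CVLM, by 1.16 (edgeR adjusted p 0.00465) and 1.44 (edgeR adjusted p 1.44e-05), where 31.6% and 33.9% of all genes were called with no filter. Its level in the NTS was 0.729 CPM in WKY rats and 0.716 CPM in SHRs as means.

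Over the 5 members that passed the filter, 23 of 30 comparisons between regions within a strain were called, 15 of them higher and 8 lower in the region named first. Among all genes, 64.2% in WKY rats and 64.4% in SHRs were called between NTS and RVLM, 52.5% and 55.9% between NTS and CVLM, and 41.1% and 44.3% between CVLM and RVLM, so differences between regions were common in general. The members parted in direction. Cacng5, Cnih2 and Cacng3 had more in the NTS than the RVLM in both strains, Cacng2 was higher in the RVLM, and Cacng4 was called in neither strain.

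**Figure D4:**
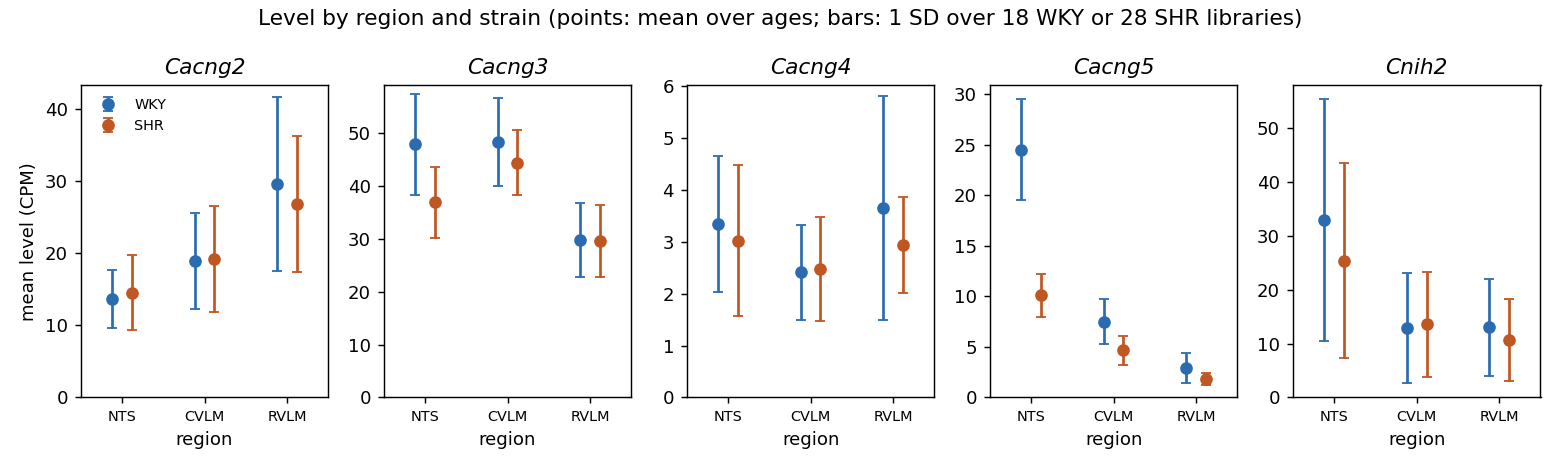
Mean level in CPM (vertical axes, each from 0) by region (horizontal axes) and strain for the 5 members that passed the filter, with bars of 1 SD over 18 WKY or 28 SHR libraries. Cacng5 steps down from NTS to CVLM to RVLM in both strains while Cacng2 steps up.

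At single ages, the 4 members other than Cacng5 that passed the filter gave 60 tests of strain, of which edgeR called 0 and DESeq2 called 0, with 6 at an unadjusted edgeR p under 0.05. From the youngest to the oldest rats, the share of all genes called was 5.79%, 4.44%, 3.1%, 1.73% and 2.46% for the NTS. For the CVLM it was 7.64%, 3.18%, 2.62%, 2.27% and 7.13%, and for the RVLM 9.78%, 2.3%, 1.7%, 1.65% and 2.24%. Over all ages, Cacng3 in the NTS was the 1 call among 12 tests by edgeR and also the 1 call by DESeq2. In the CVLM and the RVLM, 0 of 4 were called by edgeR and 0 by DESeq2, with 0 at an unadjusted p under 0.05, where 12.3% and 10.8% of genes were called. The 3 differences of strain effect between regions gave 12 tests on the same 4 members, of which edgeR called 0 and DESeq2 called 1, with 2 at an unadjusted edgeR p under 0.05, both of Cacng3. Among all genes, 1.93% were called for NTS against RVLM, 0.328% for NTS against CVLM and 0.385% for CVLM against RVLM.

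Change with age was tested from 8 to 24 wk within a strain for the 5 members. Of 30 tests, edgeR called 0 and DESeq2 called 2, with 3 at an unadjusted edgeR p under 0.05, and all 3 were Cnih2 in WKY rats. Among all genes, 0.464%, 13.7% and 0.179% in NTS, CVLM and RVLM were called in WKY rats and 0.232%, 0.649% and 0.358% in SHRs. Its log2 change from 8 to 24 wk was -2.88 (SE 0.95, edgeR adjusted p 0.0816) in the NTS. It was -2.35 (SE 1.06, edgeR adjusted p 0.126) for the CVLM and -2.56 (SE 0.90, edgeR adjusted p 0.123) for the RVLM. DESeq2 gave -2.82 in the NTS with an adjusted p of 0.0219 and -2.60 in the RVLM with an adjusted p of 0.0432. In the NTS, the WKY rats of 24 wk had 2.74, 3.43 and 13.0 CPM and those of 8 wk 5.15 to 71.5 CPM with a median of 51.7, so the groups overlapped. With the first principal component as a term, the change of Cnih2 in WKY rats was 0.026 for the NTS (edgeR adjusted p 0.999), 0.14 for the CVLM (edgeR adjusted p 0.843) and -0.13 for the RVLM (edgeR adjusted p 0.945). Cnih2 had r of 0.92 to 0.94 with that component, so the term takes up most of its variation. Fits of Cnih2 with this term therefore cannot decide whether it differed by age or strain. The NTS change was called without replicate 1 of the WKY rats of 8 wk (-3.14, edgeR adjusted p 0.0242) and without replicate 2 of those of 24 wk (-3.91, edgeR adjusted p 0.0344). With the name number as a term, it was -2.54 in the NTS (edgeR adjusted p 0.42) and -2.11 in the RVLM (edgeR adjusted p 0.36). Without the libraries ending in 2 outside 10 wk, it was -2.63 (edgeR adjusted p 0.69) and -2.38 (edgeR adjusted p 0.49) in the same order. The strain difference at 24 wk minus that at 8 wk was called in 0 of 12 tests by edgeR and 0 by DESeq2, with 3 at an unadjusted edgeR p under 0.05, again of Cnih2. In the NTS it was 3.33 (SE 1.17, edgeR adjusted p 0.173). It was 0.0030 (edgeR adjusted p 1) with the first principal component as a term, and it was called, at 4.36 (edgeR adjusted p 0.0483), without replicate 2 of the WKY rats of 24 wk. The share of all genes called in that contrast was 0% for the NTS, 2.01% for the CVLM and 0.00746% for the RVLM.

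**Figure D5:**
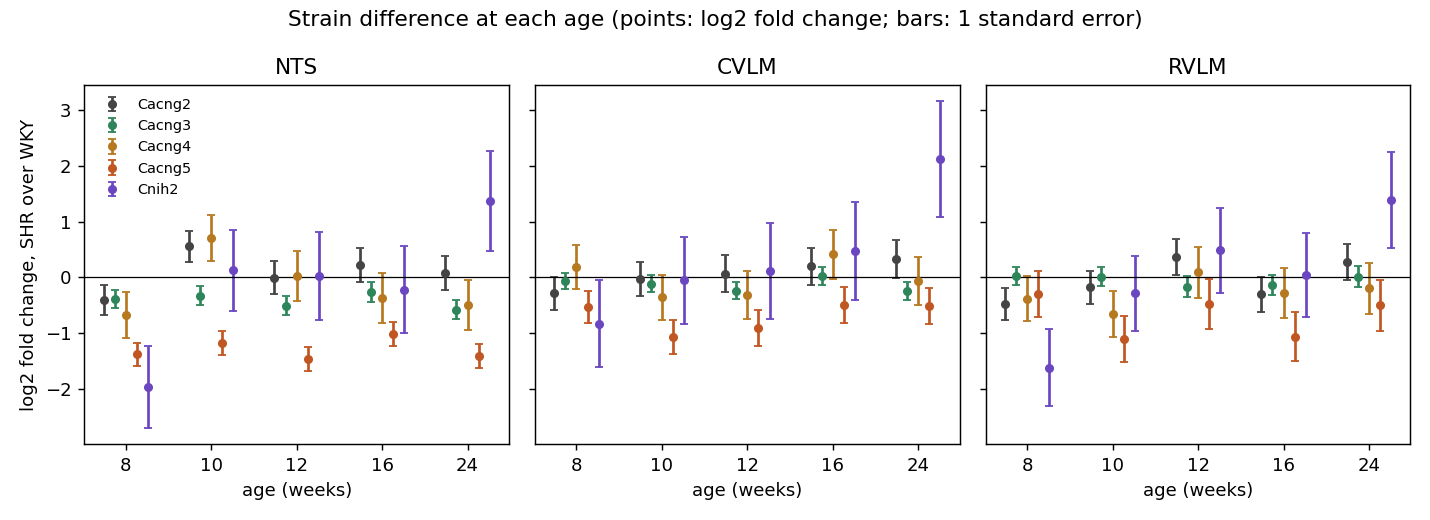
Fitted log2 fold change of SHRs against WKY rats (vertical axes) by age in weeks (horizontal axes) for the 5 members that passed the filter in each region, with bars of 1 SE. Cacng5 lies between -1.47 and -1.01 in the NTS, Cacng3 lies between -0.58 and -0.26 there, and the wide bars of Cnih2 reach 0 at 10, 12 and 16 wk in each region and not at 8 or 24 wk.

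The receptor subunits that these partners bind were measured in the same libraries. In the NTS, Gria1 was at 23.0 ± 5.02 CPM (SD, n = 18) in WKY rats and 23.1 ± 5.45 CPM (SD, n = 28) in SHRs, and Gria2, whose product makes the channel poorly permeable to calcium, was at 250.04 ± 47.8 and 231 ± 45.3 CPM. Gria3 was at 43.4 ± 6.92 and 42.8 ± 7.50 CPM and Gria4 at 222 ± 64.6 and 211 ± 44.7 CPM. The ranges of the strains overlapped for all 4. Of 12 tests over ages on Gria1 to Gria4 in the 3 regions, edgeR called 0 and DESeq2 called 1, with 1 at an unadjusted edgeR p under 0.05. That 1 was Gria1 in the CVLM, with 0.25 (SE 0.089, edgeR adjusted p 0.0562).

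A list of 29 genes, of which 27 were measured, took in these 4 subunits. It also held 10 other auxiliary and assembly proteins, 11 of anchoring and trafficking and 4 relatives of the members. In the NTS, 1 gene of the list was higher and 0 lower of 25 tested. In the CVLM, 2 of 25 were higher and 0 lower, and in the RVLM 3 of 24 were higher and 1 lower. These are 4%, 8% and 16.7%, against 11.2%, 12.3% and 10.8% of all genes. DESeq2 called 1, 3 and 5 of them. Their median log2 fold change was 0.014, 0.030 and 0.019, against 0.0097, -0.0030 and 0.0088 over all genes tested. The count in the RVLM ran from 1 (without SHR replicate 4 of 8 wk) to 5 when 1 rat was left out, and was 2 without SHR replicate 2 of 10 wk, WKY replicate 3 of 10 wk, WKY replicate 1 or 2 of 12 wk, WKY replicate 2 of 16 wk, WKY replicate 1 of 24 wk or WKY replicate 5 of 8 wk. That in the CVLM was 1 without WKY replicate 1 of 12 wk.

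Nsf was higher in SHRs throughout the 3 regions. It encodes an ATPase that takes SNARE complexes apart and binds GluA2. In the NTS it was at 821 ± 78.9 CPM (SD, n = 18) in WKY rats and 949 ± 96.2 CPM (SD, n = 28) in SHRs, a log2 fold change of 0.21 (SE 0.045, edgeR adjusted p 0.000965). In the CVLM it was at 1195 ± 167 and 1487 ± 184 CPM, a log2 fold change of 0.30 (SE 0.056, edgeR adjusted p 9.29e-05). In the RVLM it was at 796 ± 89.5 and 1029 ± 121 CPM, a log2 fold change of 0.35 (SE 0.048, edgeR adjusted p 2.32e-07). The strains overlapped in each region, and Nsf was called in each region in all 46 fits that left out 1 rat. In the RVLM, Syndig1, whose product promotes excitatory synapses, was lower in SHRs, at 141 ± 30.7 CPM in WKY rats and 116 ± 24.1 CPM in SHRs (log2 fold change -0.24, SE 0.076, edgeR adjusted p 0.0356). The scaffold gene Grip1, at 4.01 ± 1.49 and 5.15 ± 1.41 CPM, and Shisa7, at 1.32 ± 0.715 and 2.02 ± 0.824 CPM, were higher there, with edgeR adjusted p of 0.0259 and 0.0469. Shisa7 was called in 16 of the 46 fits that left out 1 rat, Grip1 in 43 and Syndig1 in 38. With age and replicate number together as a block, Nsf was the 1 gene of these 4 still called in the RVLM (0.37, edgeR adjusted p 0.000374). Syndig1 (-0.27), Grip1 (0.38) and Shisa7 (0.67) had edgeR adjusted p of 0.102, 0.108 and 0.125. In that fit, SHRs with no WKY rat of the same age and number add nothing to the strain difference, so it rests on fewer rats. In the CVLM, the scaffold gene Dlg2 was higher in SHRs, by 0.30 (SE 0.089, edgeR adjusted p 0.0189).

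Genes next to Cacng5 on chromosome 10, by their order in the RefSeq annotation of GRCr8, were looked at for a shared difference. Of 10 neighbours, 8 were in the tables, and 6, 7 and 6 were tested in NTS, CVLM and RVLM, where 11.2%, 12.3% and 10.8% of all genes were called. Cep112 was the 1 call in the NTS, lower in SHRs at 2.37 ± 0.624 CPM (SD, n = 28) against 3.19 ± 0.648 CPM (SD, n = 18) in WKY rats, with a fitted change of -0.42 on the log2 scale (SE 0.11, edgeR adjusted p 0.00773). In the CVLM and RVLM, edgeR called 0 and DESeq2 called 0, with 1 and 0 at an unadjusted edgeR p under 0.05. Cacng4, which lies beside Cacng5, had strain differences of -0.16, -0.03 and -0.28 in NTS, CVLM and RVLM (edgeR adjusted p 0.747, 0.961 and 0.436), and Prkca, which encodes protein kinase C alpha, had 0.16, 0.16 and 0.11.

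Over the 30 groups of region, strain and age, which come from the same 46 rats, the genes most like Cacng5 by Pearson's r of mean log2 CPM, among 13080 genes, were Pmfbp1 (0.958), Pgrmc1 (0.939), Rpn1 (0.937), Ahi1 (0.937) and Ddc (0.937). These r are descriptions of group means, in which region and strain both take part. Pmfbp1 was at 9.97 CPM in WKY rats and 6.06 CPM in SHRs in the NTS, at 4.73 and 3.34 CPM in the CVLM and at 2.94 and 1.94 CPM in the RVLM, and so fell in the same order over regions as Cacng5. Ddc, which encodes the enzyme that makes dopamine and serotonin from their precursors, was at 31.3 and 26.8 CPM in the NTS and at 9.18 and 8.41 CPM in the RVLM. The genes most like the other members were Zfyve28 for Cacng2 (0.965), Cmip for Cacng3 (0.909), Thra for Cacng4 (0.743) and B4galt2 for Cnih2 (0.983).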

How the data were processed

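RNA from bilateral punches of 3 brainstem regions of 46 rats was sequenced. The authors deposited 1 table of RSEM expected counts per region, not normalized. Their methods give STAR within RSEM on rn6 and name an adjustment with ComBat_seq, and whether the tables hold it is not stated (5.02%, 4.95% and 4.88% of values in NTS, CVLM and RVLM are not whole). All 32883 genes and every column were read.

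The values were rounded to whole numbers. Genes whose largest rlog value in a region reached 3.5 entered its fits (13793, 13408 and 13411 genes). edgeR 4.0.16 (R 4.3.3; TMM, robust quasi-likelihood) fitted 10 means of strain and age per region. Regions were compared in 1 fit with the rat as a block. The Benjamini-Hochberg adjustment ran over all genes of a contrast, and genes were called at an adjusted p under 0.05. CPM used TMM over all libraries, and log2 CPM a prior count of 2. Members and lists were chosen with earlier results of these data known. Named genes are all members, called genes of the lists, Gria1 to Gria4 and the genes most like each member with a mean of at least 1 CPM. Alternatives were DESeq2 1.42.0, RLE factors in place of TMM, no filter, a replicate block, and terms for name number or principal component. Each age was also fitted alone, and libraries were left out. For strain differences, a replicate block held the rats of the same age and replicate number. On simulated counts, 45% to 70.5% of 2-fold changes were recovered at single ages and 91.5% to 93.5% over ages. Shisa9, Gsg1l, Pecam1, Foxj1, Pitpnc1 and Mifl4 were not analysed here, nor were the promoters of Cacng4 and Cacng7. Within groups, 270 pairs of libraries were checked for repeats, and none came near identity (lowest chi-square per gene 4.95).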

Additional observations from a re-analysis of the deposited data

Results flagged for a closer look

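Of 105 groups of 4 or more rats of a member that passed the filter, 6 had 1 library far from the others of its group, where the gap to its nearest neighbour took most of the range. Chance flags about 1 group in 20. Cacng3 in the RVLM of SHRs of 16 wk was at 51.7 CPM in replicate 1 and at 30.9 to 37.9 CPM in the others. Cacng4 in the RVLM of WKY rats of 8 wk was at 10.3 CPM in replicate 3, a library whose name ends in 2, and at 1.11 to 3.20 CPM in the others. Cacng5 stood out in 3 groups. In the NTS of SHRs of 8 wk it was at 12.3 CPM in replicate 4 and at 8.26 to 9.40 CPM in the others. In the CVLM it was at 1.59 CPM in WKY replicate 4 of 10 wk, with the others at 8.91 to 10.3 CPM, and at 8.27 CPM in SHR replicate 5 of 24 wk, with the others at 3.70 to 4.72 CPM. Cnih2 in the CVLM of SHRs of 8 wk was at 21.2 CPM in replicate 5, a library whose title and age label differ, and at 1.18 to 6.01 CPM in the others.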

How the results depend on the processing

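Of 349 values recomputed under alternatives other than leaving out 1 rat, 337 stayed within the allowed range and 12 moved. A count of calls stayed if it changed by no more than a set factor and neither reached nor left 0. A log2 fold change of Cacng5 stayed if it kept its sign and moved by less than the SD within groups. This range is wide. Cacng5 in the RVLM at 12 wk went from -0.48 to -0.076 with a replicate block and was still taken as having stayed. With DESeq2, 1 member was called from 8 to 24 wk in WKY rats in the NTS and 1 in the RVLM, and 1 for the difference of strain effect between NTS and RVLM, as it was (1) without the libraries ending in 2 outside 10 wk. Members other than Cacng5 called at single ages in the NTS came to 1 with the principal component as a term and 2 without the libraries ending in 2 outside 10 wk. The list of AMPA receptor genes had 4 calls in the CVLM and 2 in the NTS with the name number as a term. Without the choroid-rich libraries, Cacng5 at 12 wk in the NTS was at -0.97. The cause was not tested.

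Of 54 pairs of rats with the same number, 32 had correlated deviations over 0.1 (range -0.332 to 0.553), and 22 did not. Every pair was over 0.1 in 4 of 15 sets of region and age (NTS at 12 and 24 wk, CVLM at 10 and 12 wk). The labels tie no number to a shared litter, batch or day, so the numbers were not taken as a pairing. With a replicate block, 3 were called at single ages in the NTS (Cacng3 at 8 wk, -0.40, and 24 wk, -0.72, and Cnih2 at 8 wk, -2.01, which was 0.015 with the principal component as a term and -1.71 without the libraries ending in 2 outside 10 wk, neither called), and the list had 2 calls in the NTS and 1 in the RVLM.

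Of 1875 values with 1 rat left out, 1851 stayed, 21 moved and 3 reversed. For Cacng5 at single ages, most refits left out a rat of another age, which could hardly move the value. The number that stayed is thus no measure of how steady the values are. The reversed ones were Cacng5 in the RVLM, which ran from -0.54 to 0.043 at 8 wk, from -0.89 to 0.32 at 12 wk and from -0.92 to 0.062 at 24 wk. Counts of calls ran from 0 to 1 for 24 against 8 wk in WKY rats in the NTS and for the change of strain effect in the NTS, from 0 to 2 for the difference between NTS and RVLM (2 without WKY replicate 3 of 16 wk, a count that takes in Cacng5) and for single ages in the NTS (2 without WKY replicate 1 of 8 wk), and for the list from 1 to 3 (CVLM) and 1 to 5 (RVLM). The fits between regions were repeated without each of 9 WKY rats only, and with the dispersion estimated from all rats. With 3 WKY rats at 12, 16 and 24 wk and few reads of Cacng7, Cacng8 and Cnih3, small changes at single ages could not be seen.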
